A study of Nothobranchius furzeri with 8 samples.

Results

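NPAS4 is a transcription factor gene that neurons switch on when they are active, and it was followed here as 1 gene (Nfu_g_1_004262, paired with the zebrafish-style symbol NPAS4A) of 26739 in the count table of a brain RNAseq of the turquoise killifish *Nothobranchius furzeri*. Whole brains of 4 wild males of population A41, aged 39 days post hatching, were set against those of 4 captive males of the strain MZM-0410, aged 35 days post hatching. Wild fish were netted in their pond shortly after sunrise and dissected at once, and their brains were kept in a storage solution before freezing. Captive fish were housed singly, were sacrificed fasted in the morning and had their brains frozen directly. No fish carried a transgene or received a drug. Both stocks come from the same phylogeographic lineage, but the paper found them genetically distinct, with a higher average kinship among its captive fish. Place of life, stock, age, feeding, capture and storage all changed together between the groups and cannot be told apart. The paper gives no hour of the morning for the captive fish, so whether time of day also differed is not known. The gene was chosen by its difference in count between these same 8 fish, so that difference is described below with no test.

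NPAS4 belongs to the bHLH-PAS family, whose members bind DNA as pairs. In rodents its partners are ARNT and ARNT2, and it acts in neurons. It is an immediate early gene: calcium that enters through glutamate receptors and voltage-gated channels activates kinases, these act on factors already bound at the promoter such as CREB1, SRF and MEF2C, and transcription starts without new protein being made. Unlike FOS or EGR1, which growth factors also induce in many cell types, NPAS4 in rodent neurons is known for depending on calcium. The genes it controls in rodents include BDNF, PLK2, MDM2 and SYT10, through which excitatory and inhibitory inputs are adjusted.

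Total counts were 13923243 to 14541119 in the wild and 11814586 to 14393377 in the captive libraries. The labels give separate fish, 1 library each. After TMM scaling, edgeR's quasi-likelihood test called 41.6% of the 19517 tested genes (at least 1 count in each library) at an adjusted p under 0.05, 19.8% higher and 21.8% lower in wild fish. Among the 7344 tested genes that have a name, 32.5% were higher and 33.4% lower, so that a large share of any named list passes the test. RNA integrity, as listed by the study, was lower in 4 of the 4 wild fish than in every captive fish. The share of these differences that goes with integrity was not tested beyond a fit with integrity as a covariate, which left 46 calls over all genes. That fit is less precise (for NPAS4 an SE of 0.46, against 0.14 without the covariate), so a call lost in it does not show that a difference went away.

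NPAS4 was abundant in every wild brain. It had 4361 counts in wild fish 3, 4903 in wild fish 5, 4698 in wild fish 7 and 3492 in wild fish 11. In captive brains it had 644 counts in fish MZM_0410_124, 1016 in MZM_0410_125, 979 in MZM_0410_126 and 922 in MZM_0410_127. The lowest wild fish thus lay above the highest captive fish, and the groups did not overlap, as was the case for 39.9% of the tested genes. The same gene took 1 in 2867 to 1 in 4125 reads of the wild libraries and 1 in 12708 to 1 in 18346 of the captive ones.

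Scaled to CPM (counts relative to library totals adjusted by TMM), the wild fish had 308, 342, 322 and 242 CPM in the same order, and the captive fish 55.4, 77.5, 78.8 and 64.4 CPM. Wild fish 3, 5 and 7 sat close together and fish 11 lay below them, while among the captive fish MZM_0410_124 was lowest. The means were 304 ± 43.6 CPM in wild fish against 69.0 ± 11.2 CPM in captive ones (SD, n = 4 each), a ratio of 4.40. The closest pair of fish across the groups differed 3.07-fold and the most distant pair 6.18-fold. On the log2 scale the fitted difference was 2.14 (SE 0.14). Without scaling, the deposited RPM values gave 307 ± 45.5 and 68.3 ± 11.2, a ratio of 4.49.

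**Figure D1:**
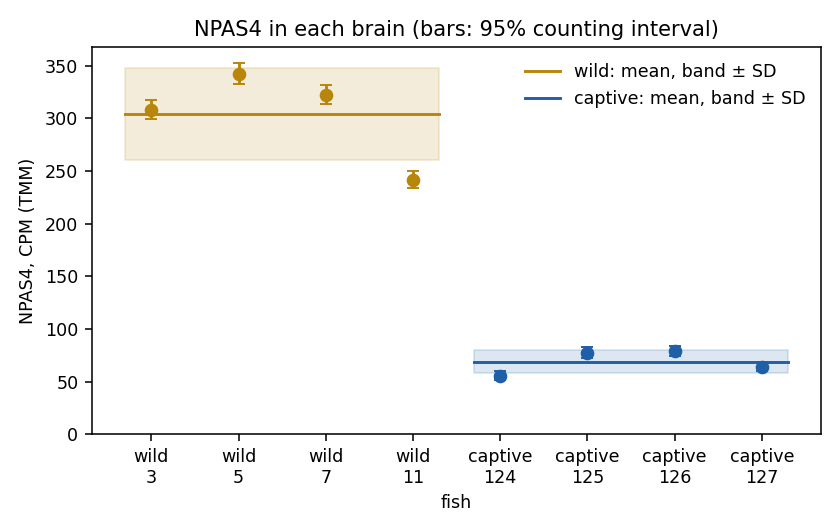
NPAS4 in CPM on an axis starting at 0, for the 4 wild and the 4 captive fish. Points are fish with their exact Poisson interval (95%, counting error only), and horizontal lines with shaded bands are group means ± SD, with captive fish marked by the last digits of their label: the wild fish lie at 242 to 342 CPM and the captive fish at 55.4 to 78.8 CPM.

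Counting error was small beside the spread among fish. In wild fish 3, for example, the exact 95% Poisson interval ran from 299 to 317 CPM, and in captive fish MZM_0410_124, the fish with the fewest reads of the gene, from 51.2 to 59.9 CPM. The coefficient of variation was 14.4% among wild and 16.2% among captive fish, whereas counting alone gives 1.51% and 3.35%. In both groups the highest fish had 1.42 times the level of the lowest. Of the 1127 genes with a wild mean within 0.5 to 2 times that of NPAS4, 7.28% varied more among the wild fish, and the median coefficient of variation was 5.87%. Of the 4897 genes near its captive mean, 8.92% varied more among the captive fish, with a median of 6.44%. NPAS4 therefore varied from fish to fish more than most genes of like abundance, in the wild and in captivity, by an amount well below the distance between the groups.

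The place of NPAS4 among all genes moved accordingly. Ordered by RPKM, which divides by transcript length (5176 bases for this gene), it was at rank 1130 to 1681 of 26739 in the wild fish and at rank 5675 to 7455 in the captive fish. These ranks correspond to the top 4.23% to 6.29% and the top 21.2% to 27.9% of the table. By RPM, which ignores length, it stood at rank 384 to 678 in wild and at rank 3151 to 4429 in captive fish. The mean level was 59.3 ± 8.79 RPKM in wild fish, 8.77 times the median tested gene, and 13.2 ± 2.17 RPKM in captive fish, 1.84 times the median.

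Its neighbours in the order give a sense of these levels. In wild brains the nearest named genes included SOX11, a factor of newborn neurons, with 59.4 RPKM, and ELMOD1 and C1orf21 with 59.2 RPKM each. In captive brains they were KPNA1, a nuclear import receptor, and CLOCK with 13.2 RPKM each, and the kinase WNK3 and the MAX-binding repressor MNT, also with 13.2 RPKM each. All these neighbours differed from NPAS4 by far less than its own SD, so the order among them is arbitrary. In the other group they lay elsewhere: SOX11 had 59.7 RPKM in captive fish, about its wild level, and ELMOD1 had 122 RPKM.

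**Figure D2:**
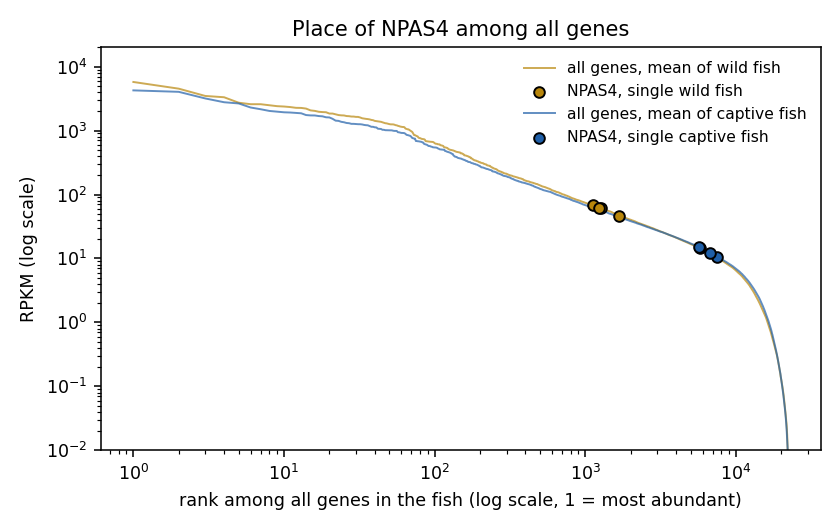
RPKM against rank (both axes logarithmic) for all genes of the table with a mean above 0, as 1 curve per group mean, with NPAS4 of each fish as a point at its own rank. The 4 wild points lie at ranks 1130 to 1681 and the 4 captive points farther down at ranks 5675 to 7455.

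Ordered by the log2 difference, largest rise first, NPAS4 was 60th of the 19517 tested genes and 17th of the 7344 named ones. Among the 12992 genes whose mean reached 100 counts it was 15th, and among the 3334 whose mean reached 1000 counts it was the third, after a pair of genes without a name. NPAS4 passed the cut at 1000 counts through the wild fish (mean counts 4363.5, against 890.2 in captive fish). The same cut left out FOS (mean 728.5 counts, log2 3.02) and EGR2 (mean 106.6 counts, log2 3.20). The gene was chosen for this difference, so its ranks here are description only. The median tested gene differed by 0.04 on the log2 scale and the median called gene by 0.52 in either direction.

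Because a whole brain was sequenced, fewer cells of a type and less RNA per cell cannot be told apart. Mature neuron markers were therefore set beside NPAS4. The 20 measured genes of this list (14 of 18 symbols) summed to 5318 to 5772 CPM in wild fish against 5935 to 6552 CPM in captive ones, with 3 higher, 8 lower and 9 not passing the test. Per 1000 CPM of these markers, NPAS4 had 55.2 ± 6.96 CPM in wild fish against 11.04 ± 2.09 CPM in captive ones, a ratio of 5.00. The sum was thus lower in wild brains, but its members did not move alike. The 8 lower ones included GAD2 (log2 −3.06) and SYN1 (log2 −1.99). The 3 higher ones included both copies of STMN2 (log2 0.23 and 0.35), and ELAVL3 was among the 9 that did not pass (log2 −0.06).

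Markers of other cells were summed in the same way. Those of radial glia and astrocytes (6 genes, 3 higher and 2 lower) summed to 5218 to 7193 CPM in wild fish against 3924 to 5324 CPM in captive ones. Oligodendrocyte markers (9 genes, 2 higher and 3 lower) summed to 4881 to 7624 CPM in wild fish against 7370.0 to 11392 CPM in captive ones. Markers of newborn neurons and progenitors (8 genes, 3 higher and 2 lower) reached 1042 to 1143 CPM in wild fish against 743 to 933 CPM in captive ones. The 3 higher ones were NEUROD1 (log2 0.61), NES (log2 0.67) and VIM (log2 0.81). Both copies of SOX4 were lower, and DCX, SOX11 and MKI67 did not pass. Endothelial markers (4 genes, 1 higher and 1 lower) spanned 86.2 to 110.4 CPM in the wild and 84.45 to 100.4 CPM in captivity, erythrocyte markers (3 genes, 1 higher and 2 lower) 101 to 122 and 155 to 193 CPM, and skeletal muscle markers (2 genes, 1 higher) 10.7 to 20.6 and 5.31 to 15.4 CPM. No measured gene carried a name from the microglia or the eye and pineal lists. Without the genes named through the condition table alone, the counts were 2 higher and 3 lower of 14 for mature neurons, 1 and 1 of 3 for radial glia and astrocytes, and 1 and 0 of 4 for oligodendrocytes. The shares over all named genes, 32.5% and 33.4%, stand beside each of the counts over the full marker lists. The counts without those genes have no such base, because the share over all genes named elsewhere was not computed. The part of cell composition in the NPAS4 difference was not tested.

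GH1, the growth hormone of the anterior pituitary, parted the fish within both groups, and the 2 measured hormone genes, GH1 and AVP, together spanned 61.8 to 3219 CPM in wild and 38.3 to 878 CPM in captive fish (AVP called higher). It had 3170 CPM in wild fish 3 and 1799 in wild fish 5, against 0.686 in fish 7 and 0.415 in fish 11. Captive fish MZM_0410_124 and MZM_0410_127 had 851 and 726 CPM, against 1.14 in MZM_0410_125 and 0.724 in MZM_0410_126. Among the fish with GH1 the ratio of NPAS4 between wild and captive means was 5.43 (325 and 59.9 CPM), and among those without it 3.61 (282 and 78.1 CPM), a split made after seeing the data, with 2 fish per group. On either side of this split the wild fish lay above the captive fish, which any split must give because the groups did not overlap.

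The genes around NPAS4 were read by role, in 5 lists. Only genes with a name could be placed, so each list is covered in part. Of the symbols listed, 7 of 17 were found for the bHLH-PAS family and 9 of 31 for calcium entry and kinases. For promoter-bound factors 17 of 31 were found, for immediate early factors 20 of 31 and for early response effectors 26 of 44. A symbol not found can belong to a gene without a name. Where a copy is named only through the study's table of genes that respond to condition, which was drawn partly from these libraries, its call is not independent evidence of a direction. Counts are therefore also given for the genes named elsewhere. The share called among all genes named elsewhere was not computed, so these counts have no base to be set against. The first list holds the bHLH-PAS relatives. Of 9 measured genes, 1 was higher and 6 were lower in wild fish, beside 32.5% and 33.4% of all named genes, with a median log2 difference of −0.46. ARNT was not measured under that name. Both copies of ARNT2, the partner subunit, were lower, and both are named through the condition table alone. The copy Nfu_g_1_023486 had 19.1 ± 1.86 CPM in wild fish against 26.2 ± 1.28 CPM in captive ones (log2 −0.46, SE 0.09, adjusted p = 0.0027). The copy Nfu_g_1_012345, whose gene model is 317 bases long, had 11.7 ± 0.558 and 14.3 ± 0.858 CPM (log2 −0.29, SE 0.09, adjusted p = 0.03), and with upper quartile scaling it did not pass.

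The largest falls of the family were in the circadian clock. CLOCK, the activator that pairs with ARNTL, fell to 12.2 ± 1.47 CPM in the wild, against 37.2 ± 2.42 CPM in captivity (log2 −1.61, SE 0.10, adjusted p = 2e-06). ARNTL2 Nfu_g_1_008319 had 38.0 ± 4.01 CPM in wild fish against 82.0 ± 5.71 CPM in captive ones (log2 −1.11, adjusted p = 7.3e-06), and ARNTL had 41.9 ± 9.47 and 77.5 ± 1.80 CPM (log2 −0.89, adjusted p = 0.00064). The other copy of ARNTL2 did not pass. EPAS1, a hypoxia-inducible factor, was the one member called higher (4.68 against 2.22 CPM, log2 1.07, adjusted p = 0.0044). HIF3A, its relative and the most counted member, had 125.5 ± 4.73 and 139 ± 3.13 CPM (log2 −0.15, adjusted p = 0.029), a call that was lost with upper quartile scaling and with library totals. NPAS1, a repressor found in inhibitory neurons of rodents, did not pass (log2 0.16, adjusted p = 0.092), but was called higher under those same scalings. Of the 5 members named elsewhere than in the condition table, 1 was higher and 2 were lower. Like the ARNT2 copies, CLOCK and ARNTL2 Nfu_g_1_008319 are named through that table alone.

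Per length, NPAS4 had 59.3 RPKM in wild fish, against 37.3 RPKM for the short ARNT2 copy and 8.68 RPKM for the longer one. In captive fish it had 13.2 RPKM, against 44.7 and 11.7 RPKM. The order thus differed between the groups for the short copy only, whose RPKM rests on a gene model of 317 bases. In CPM, NPAS4 lay above both copies in both groups (captive means 69.0 against 14.3 and 26.2 CPM). Among the 32 genes of the family and of the immediate early list, NPAS4 was in place 5 in wild and in place 13 in captive fish. In wild fish it followed EGR1 (138 RPKM), JUND (125.4 RPKM), BHLHE40 (124.7 RPKM) and JUNB (70.4 ± 16.6 RPKM), from which it differed by less than the SD of JUNB.

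**Figure D3:**
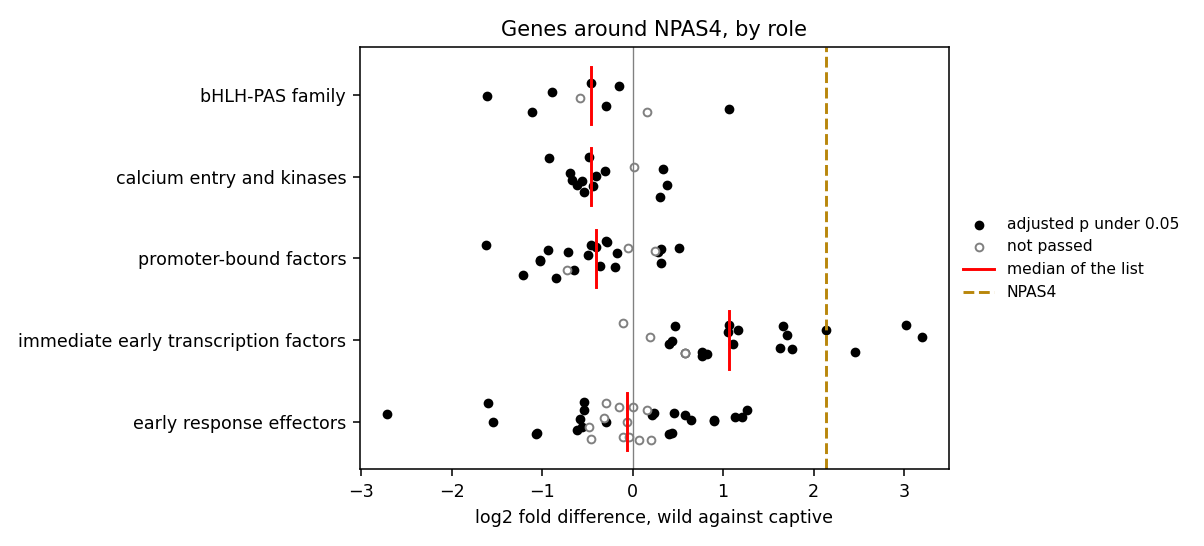
The log2 difference (wild against captive) of each measured gene in the 5 lists, with filled points past an adjusted p of 0.05, open points not passed, red bars at list medians and a dashed line at NPAS4 (2.14). The immediate early transcription factors have a median of 1.06 and the other lists medians from −0.46 to −0.06.

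For receptors, channels and kinases that carry the calcium signal, 9 of the 31 symbols listed were found, as 14 genes. Of these 14, 3 were higher and 10 lower, with a median of −0.46, beside 32.5% and 33.4% of all named genes. Both copies of GRIN2A, an NMDA receptor subunit, were lower, by −0.67 (SE 0.07, adjusted p = 4.2e-05) and −0.69 (SE 0.07, adjusted p = 7.4e-05). CAMK2B Nfu_g_1_017259, a calcium and calmodulin-dependent kinase of synapses, had 114 ± 15.3 CPM in wild fish against 216 ± 16.7 CPM in captive ones (log2 −0.92, adjusted p = 5.6e-05). The higher genes included CAMK2D Nfu_g_1_022489, a kinase of the same family (log2 0.34, adjusted p = 0.012). The other copy of CAMK2D, Nfu_g_1_013623, was called lower (log2 −0.31, adjusted p = 0.0034). Of the 14 genes, 8 owe their name to the condition table alone, and among the other 6 the test called 2 higher and 3 lower. Both copies of CAMK2D and the GRIN2A copy Nfu_g_1_007055 are among those 8.

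Of the factors that sit at activity-responsive promoters before the signal arrives, 23 genes were measured, of which 4 were higher and 16 lower (median −0.40), beside 32.5% and 33.4% of all named genes. The lower side rests mainly on genes named through the condition table alone: of the 7 others, 2 were higher and 2 lower. Those named through it alone include CREB1, MEF2C, CREBBP, HDAC4, HDAC5 and both copies of MKL2. CREB1, which recruits coactivators once phosphorylated, had 138 ± 19.1 CPM in wild fish against 176.5 ± 10.2 CPM in captive ones (log2 −0.36, SE 0.09, adjusted p = 0.012). MEF2C had 62.9 ± 1.41 and 70.6 ± 4.32 CPM (log2 −0.17, adjusted p = 0.039), and SRF was not measured under that name. CREBBP Nfu_g_1_022972, the acetyltransferase that binds CREB1, was lower with 74.7 ± 4.85 against 152 ± 7.47 CPM (log2 −1.02, adjusted p = 1.8e-06).

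The lower genes of the list also included corepressors. HDAC4 Nfu_g_1_014268, a deacetylase that holds MEF2 factors silent, had 21.2 ± 2.48 against 65.3 ± 2.99 CPM (log2 −1.62, adjusted p = 8.9e-07). HDAC5, its relative and the most counted gene of the list, had a log2 difference of −0.71 (adjusted p = 1.6e-05). The higher genes included another deacetylase, HDAC3 (log2 0.31), the SRF coactivator MKL2 Nfu_g_1_022947 (log2 0.28) and CREM, which can give an inducible repressor, with 18.4 ± 3.18 against 12.9 ± 1.06 CPM (log2 0.51, adjusted p = 0.012). The other copy of MKL2, Nfu_g_1_023089, was called lower (log2 −0.29, adjusted p = 0.0082).

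The immediate early transcription factors stood on the side of NPAS4. Of 22 measured genes, 19 were higher in wild fish, none was lower by the test and 3 did not pass, with a median log2 difference of 1.06. The share called higher among all named genes was 32.5%. The list was chosen with earlier results of these data known, so its distance from this share is not independent evidence. Of the 14 genes named elsewhere than in the condition table, 11 were higher, without a share over all such genes to set beside this count. Named through that table alone were FOS, EGR1, EGR3, both copies of JUNB, JUN Nfu_g_1_020051, MYC and BHLHE40. The groups did not overlap for 19 of the 22, each with wild fish higher. Over all tested genes this share was 39.9% in either direction and 19.2% with wild fish higher, and it was not computed for named genes alone. The log2 difference of 4 members exceeded that of NPAS4 (2.14, SE 0.14): EGR2 (3.20, SE 0.37), FOS (3.02, SE 0.30), NR4A1 (2.46, SE 0.27) and ATF3 (2.14, SE 0.36). For ATF3 the excess was far below its SE. With RNA integrity as a covariate, 1 of the 22 (FOSL2) was still called higher, while the median log2 difference was 0.86. The difference was larger than without the covariate for 10 of the 22, among them NR4A1 (2.99), EGR2 (3.23) and JUND (1.76), and smaller for 12, among them FOS (1.98), EGR1 (1.01) and ATF3 (0.35).

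FOS, a subunit of the AP-1 dimer and the usual marker of recently active neurons, had 137, 99.1, 86.4 and 44.0 CPM in wild fish 3, 5, 7 and 11, and 9.90 to 12.3 CPM in captive fish. The wild fish thus spanned a wide range, with fish 11 lowest as for NPAS4, and the captive fish a narrow one (log2 3.02, SE 0.30, adjusted p = 3.8e-05). Its relatives moved less. FOSL2 had 161 ± 28.5 against 74.7 ± 4.51 CPM (log2 1.11, adjusted p = 6.9e-05), FOSB 80.0 ± 13.3 against 47.0 ± 8.95 CPM (log2 0.77, adjusted p = 0.0025), and FOSL1 was near 2.16 and 0.672 CPM (log2 1.66, adjusted p = 0.0079). Among the JUN genes, the other AP-1 subunits, JUNB Nfu_g_1_019346 had 131 ± 30.4 against 42.3 ± 1.74 CPM (log2 1.63, adjusted p = 1.5e-05). The second JUNB (log2 1.05), JUND (log2 1.07) and JUN Nfu_g_1_020727 (log2 0.82) were also higher, and JUN Nfu_g_1_020051 passed narrowly (log2 0.44, adjusted p = 0.018).

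EGR1, a zinc finger factor induced by synaptic input and by growth factors, had 291, 243, 184 and 119 CPM in wild fish 3, 5, 7 and 11 and 55.6 to 68.5 CPM in captive fish (log2 1.76, SE 0.23, adjusted p = 0.00025). Every wild fish was above every captive fish, and fish 11 was again lowest. EGR4 repeated this with 153, 120.1, 127.5 and 42.6 CPM against a captive mean of 33.8 ± 3.94 CPM (log2 1.71, adjusted p = 0.002). EGR2 was scarce at 13.5 ± 3.41 against 1.45 ± 0.786 CPM (adjusted p = 0.00011), and EGR3 differed least (log2 0.40, adjusted p = 0.0062).

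The orphan nuclear receptor NR4A1 had 4.82 ± 0.560 against 0.865 ± 0.316 CPM (adjusted p = 7.2e-05), and the stress-induced repressor ATF3 4.25 ± 2.05 against 0.959 ± 0.134 CPM (adjusted p = 0.001). KLF4 (log2 1.16) and MYC (log2 0.47), growth-regulating factors, were higher, as were the clock-linked PER1 (log2 0.77) with 170.0 ± 3.803 against 99.6 ± 12.3 CPM and BHLHE40 (log2 0.58) with 387 ± 19.0 against 260 ± 13.2 CPM. The 3 genes that did not pass were NR4A3 (log2 0.58, adjusted p = 0.19), CSRNP1 (log2 0.19, adjusted p = 0.31) and MAFK (log2 −0.11, adjusted p = 0.80). MAFK was the one member with a negative difference (unadjusted p = 0.73 in edgeR's test), and DESeq2 also called 0 members lower.

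**Figure D4:**
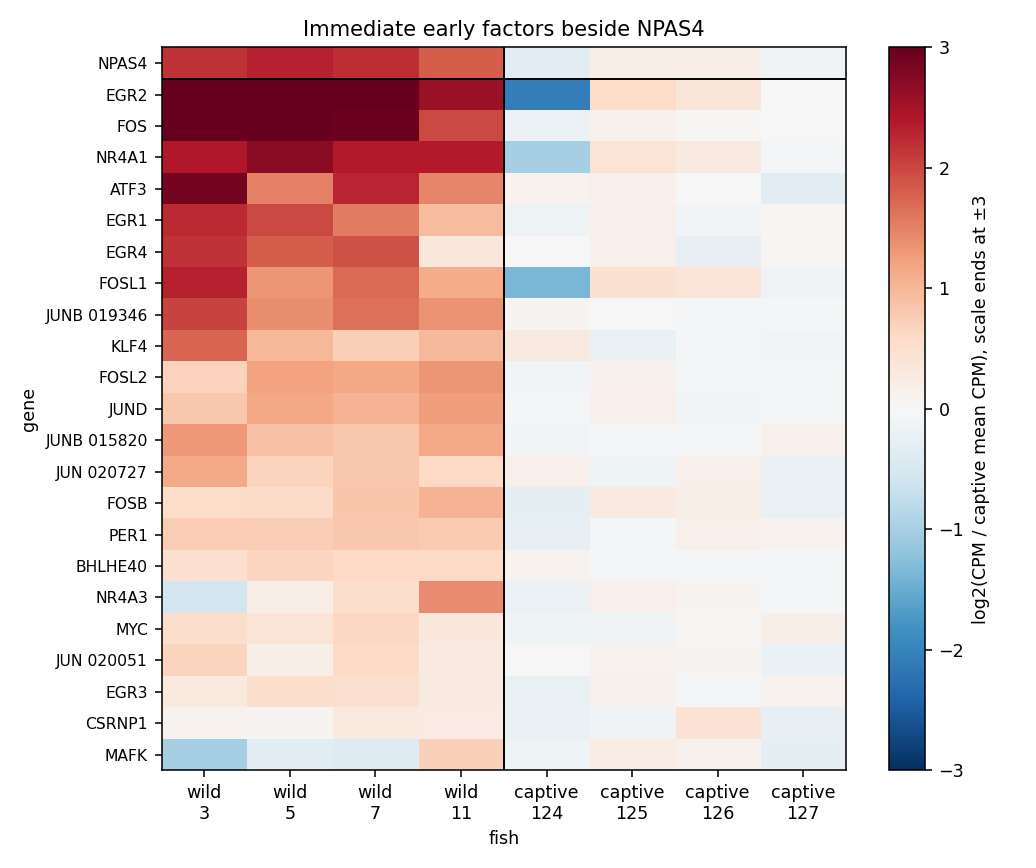
NPAS4 and the 22 immediate early transcription factors in the 8 fish. Columns are fish, rows are genes, and colour is the log2 ratio of a fish's CPM to the captive mean of that gene (red above, blue below, with the scale ending at 3 in either direction); wild fish 11 is paler than the other wild fish for FOS, EGR1 and EGR4 and strongest for NR4A3.

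Within the wild group the fish were not ordered alike. Fish 11, lowest for NPAS4, was the lowest wild fish for 11 of the 22 immediate early genes (26.4% of all tested genes have their wild minimum there) and the highest for 5 of them (27.9%), NR4A3 among these with 76.4 CPM against 19.3 to 41.3 CPM in the other wild fish. Fish 5, highest for NPAS4, was highest for 3 of the 22 (21.7% of all tested genes). Among captive fish, MZM_0410_124 was lowest for NPAS4 and for 12 of the 22 (27.2%), and MZM_0410_126 was highest for NPAS4 and for 2 of the 22 (22.9%).

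The list of early response effectors, which includes rodent targets of NPAS4 and does not separate earlier from later responders, showed no common direction. Of 35 measured genes 12 were higher, 11 lower and 12 not passed, with a median of −0.06. These counts are near the shares of all named genes (32.5% higher and 33.4% lower). BDNF, the neurotrophin and best known rodent target, had 28.5, 43.5, 38.6 and 51.7 CPM in wild fish 3, 5, 7 and 11 and 48.0 to 50.8 CPM in captive fish. It did not pass the test (log2 −0.29, SE 0.15, adjusted p = 0.14). Wild fish 11, with the least NPAS4 among the wild, had the most BDNF, while wild fish 5, 7 and 3 fell in the same order for both genes. PLK2, a kinase that weakens synapses after strong activity, was higher at 195 ± 16.2 against 147 ± 12.1 CPM (log2 0.40, adjusted p = 0.0026), and so was MDM2, a ubiquitin ligase, at 18.5 ± 1.29 against 13.5 ± 1.09 CPM (log2 0.46, adjusted p = 0.0043). SYT10, a vesicle calcium sensor, was lower at 14.5 ± 3.19 against 43.9 ± 4.09 CPM (log2 −1.60, SE 0.15, adjusted p = 2.3e-05). NPTX2 was not measured under that name.

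Among the calls with the smallest p in the same list were DUSP5, a phosphatase that switches off ERK, with 81.8 ± 4.96 against 37.4 ± 5.84 CPM (log2 1.13, adjusted p = 2.7e-05) and CIART, a clock repressor (log2 0.90, adjusted p = 5.4e-05). On the lower side, beside SYT10, were the glucose transporter SLC2A1 Nfu_g_1_018056 (log2 −1.07, adjusted p = 1.1e-05) and the insulin receptor substrate IRS2 Nfu_g_1_008662 (log2 −2.72, adjusted p = 5.6e-05). The other copy of IRS2, Nfu_g_1_005777, did not pass (log2 0.07, adjusted p = 0.86). SCG2, a secretory granule protein with the most counts of the list, had 919 ± 106 and 991 ± 102 CPM and did not pass (adjusted p = 0.39). Of the 23 genes named elsewhere than in the condition table, 5 were higher and 6 lower. PLK2, SYT10, CIART, SLC2A1 Nfu_g_1_018056 and IRS2 Nfu_g_1_008662 are not among these.

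Finally, the genes whose profile over the 8 fish came closest to that of NPAS4 were listed, as a description, since any gene with a similar group difference comes near. Likeness was the root mean square difference of log2 CPM after centring each gene, over 12991 genes whose mean reached 100 counts, of which 6541 have a name. A gene with no change at all would score 1.09. The closest was DNAJB5, a co-chaperone of the heat shock protein 40 family, at 0.218, with no unnamed gene ahead of it. It had 545, 556, 521 and 400 CPM in wild fish 3, 5, 7 and 11 and 75.1, 120.0, 187 and 117 CPM in captive fish MZM_0410_124 to MZM_0410_127. As with NPAS4, wild fish 5 was highest, wild fish 11 lowest among the wild, MZM_0410_126 highest among the captive and MZM_0410_124 lowest. DNAJB5 was picked as nearest over these same 8 fish, so a like order of fish follows largely from that choice.

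The following named genes were EGR1 (0.359), SERPINH1 (0.362), the collagen chaperone of the endoplasmic reticulum, JUNB Nfu_g_1_019346 (0.378), the transmembrane protein ITM2C (0.398), SIMC1 (0.410), which binds SUMO, FAM167A (0.450), the glycogen-targeting phosphatase subunit PPP1R3C (0.484), the stress-induced GADD45B Nfu_g_1_002546 (0.496) and FOS (0.507). SERPINH1 had 67.6 ± 12.3 CPM in wild fish against 21.1 ± 1.92 CPM in captive ones, and ITM2C 324 ± 55.1 and 113 ± 12.4 CPM. Thus 3 of the 10 are in the immediate early list, a count without a share over all compared genes to set beside it. Unnamed genes filled 9 of the places ahead of FOS. With a prior count of 0.5, 9 of the 10 stayed in the list, and with a minimum of 20 counts 7 did, with DNAJB5 first in both.

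**Figure D5:**
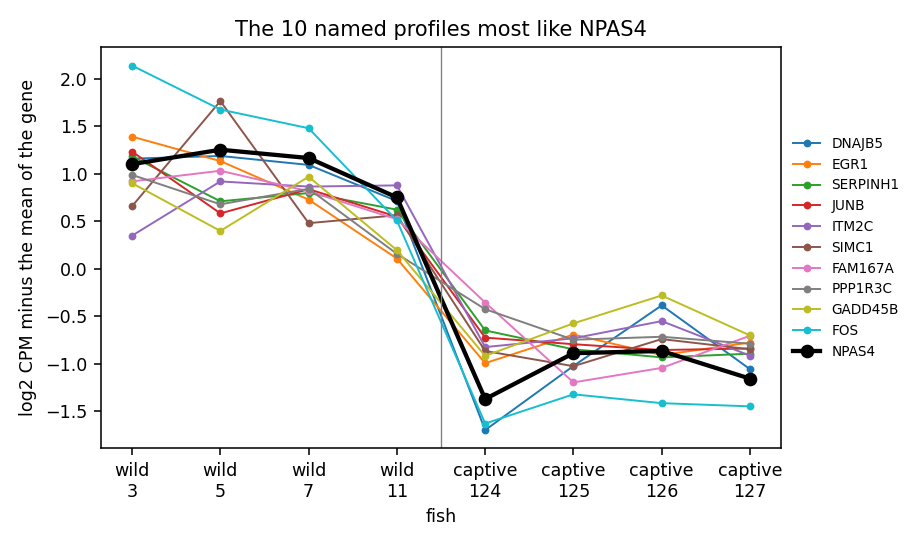
Log2 CPM, centred on each gene's mean over the 8 fish, for NPAS4 and the 10 named genes nearest to it. Lines join the values of 1 gene only to guide the eye, as the fish have no order within a group; DNAJB5 lies nearest to NPAS4 (root mean square difference 0.218) and FOS is the last of the 10 (0.507).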

How the data were processed

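Total RNA of 8 brains, 1 fish per library, was sequenced by the authors from poly(A)-selected, strand-specific libraries made in parallel. Reads were converted with bcl2fastq 2.20.0.422, aligned with TopHat2 2.1.0 to the hard-masked killifish genome with 1 alignment kept per read, and counted with featureCounts 1.6.5 (reverse strand). The authors deposited whole read counts per gene together with RPM (counts scaled to the column total) and RPKM (RPM per kilobase of transcript); single alignments can place reads of near-identical copies on either copy. The RPM values matched the counts to within 5e-12, and lengths were derived from RPM and RPKM. Replicates of a group differed by a chi-square of 7.79 to 17.2 per gene, more than counting error, so each library counts as its own replicate.

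Counts were analysed in R 4.3.3 with edgeR 4.0.16 (TMM, at least 1 count in each library, quasi-likelihood F-test, Benjamini-Hochberg adjusted p under 0.05 over all 19517 genes). The biological coefficient of variation was 0.161 in common and 0.141 for NPAS4. Alternatives used DESeq2 1.42.0 and limma 3.58.1 on log2(RPM + 0.5), other scalings and filters, thinned counts, a length trend, an integrity covariate and each fish left out. Names come from the supplementary tables. Named were NPAS4, every immediate early factor, in each other list the 3 smallest p per direction among the called genes, the gene with the most counts and known partners, promoter factors and rodent targets of NPAS4, the 10 nearest profiles and the neighbours in RPKM. Some genes that this rule names are not reported here. The gene and the 5 pathway and 10 marker lists were chosen with earlier results of these data known. Intervals cover counting error only, and p-values the spread among the 4 fish of each group. Relatedness among the fish was not modelled. Coordinates and sequences are not used here.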

Additional observations from a re-analysis of the deposited data

Results flagged for a closer look

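In 6 of 60 sets of 4 fish, taken over NPAS4, the immediate early genes and the genes of nearest profile, 1 fish stood apart from the other 3 by Dixon's criterion, which chance alone meets in about 5% of sets. NPAS4 itself met it in neither group. Captive fish MZM_0410_127 had 12.8 CPM of the JUNB copy Nfu_g_1_015820 (the others 10.8 to 11.1), captive fish MZM_0410_125 had 54.5 CPM of JUND (46.2 to 47.2), and captive fish MZM_0410_124 had 279 CPM of BHLHE40 (251 to 255). Wild fish 5 had 5.66 CPM of NR4A1 (4.50 to 4.59) and 118 CPM of SIMC1 (48.6 to 55.0). Wild fish 3 had 242 CPM of ITM2C (346 to 359), the one fish of the 6 that stood below the others.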

How the results depend on the processing

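Over other scalings, filters, tools and thinning, the log2 difference of NPAS4 stayed between 2.11 and 2.19, and leaving out each fish gave 2.03 to 2.23. With RNA integrity as a covariate, which parts the same fish as the groups do, it was 2.49 (SE 0.46), 46 genes were called in all and every list count fell to 0 except 1 immediate early gene higher. The difference grew for 10 of the 22 immediate early genes (FOSL2 2.11, NR4A1 2.99, FOSB 1.33, EGR3 0.90) and shrank for 12 (FOSL1 0.36). JUN Nfu_g_1_020727 then turned to −0.04, KLF4 to −0.68 and MAFK to 1.22. MAFK also turned to 0.01 with the length trend removed and to 0.10 without wild fish 3. Higher bHLH-PAS members were 2 with upper quartile scaling, library totals, limma-trend or the length trend removed.

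Leaving out each fish gave 6814 to 7807 calls over all genes. Immediate early genes were 18 to 20 higher and 0 to 1 lower, the 1 being MAFK (log2 −0.54) without wild fish 11. JUN Nfu_g_1_020051 lost its call without wild fish 7 (0.38), without captive fish MZM_0410_127 (0.37) and with the length trend removed (0.34), while NR4A3 passed without wild fish 3 (0.82) but was 0.13 without wild fish 11, and CSRNP1 passed without captive fish MZM_0410_126 (0.36).

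In alternatives added after seeing the data, lists were cut to genes not named through the condition table alone. Of 5 bHLH-PAS members 1 was higher and 2 lower, and of 6 calcium genes 2 were higher and 3 lower. Of 7 promoter-bound factors 2 were higher and 2 lower. Of 14 immediate early genes 11 were higher and 0 lower, and of 23 effectors 5 were higher and 6 lower. The share called over all such genes was not computed. The log2 difference of NPAS4 was 2.44 among fish with GH1 and 1.85 among fish without it, with 2 fish per group on each side. Wild fish are higher in any such split, because the groups did not overlap. No paired analysis was possible because the fish numbers are not shared between wild and captive fish. With 4 fish a group and counts of 644 or more, the spread among fish, not depth, limits the NPAS4 values.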
